A study of Mus musculus with 3 samples.

Results

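Several steps of glycolysis are carried out by isozymes, related enzymes made from different genes. Followed here across adult liver, fetal liver and bone marrow were 8 such genes of the mouse: the hexokinase genes Hk1, Hk2 and Hk3, the phosphofructokinase genes Pfkl and Pfkp, the aldolase gene Aldoa, and the pyruvate kinase genes Pklr and Pkm. The array calls Pkm by its older name Pkm2. Probes were taken by gene name, not by their signals, though the genes were chosen with earlier results of these data known. These names were carried by 18 probes, out of 41174 gene probes and 19712 named genes. Hk1 had 6 of these probes, Pfkp and Pkm had 3 each, Aldoa had 2, and each of the other 4 genes had 1.

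The study compared expression in these organs of C57BL/6 mice, with no genetic change or treatment named. Total RNA came from adult liver of mice aged 12 weeks, from fetal liver at gestation day 13.5, and from bone marrow, and each tissue was hybridised to 1 Agilent 1-colour array. It is unclear from the labels whether the marrow came from mice of the same age, and the sources used here give neither the sex nor the number of the donors. No tissue had a replicate, so no test was made, and every difference describes these 3 RNA samples. The comparisons also share arrays in pairs, so the fold between fetal liver and bone marrow follows from the other folds.

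Hexokinases trap glucose in the cell as glucose 6-phosphate. Hk1, Hk2 and Hk3 encode hexokinases of high affinity, which serve most cells outside the liver parenchyma. Phosphofructokinase commits the sugar to glycolysis and is built from liver (Pfkl), muscle (Pfkm) and platelet (Pfkp) type subunits. Aldolase splits the resulting fructose 1,6-bisphosphate, and Aldoa encodes the form found in muscle, red cells and many other tissues. Pyruvate kinase makes pyruvate at the end of the pathway. Pklr has a red cell form and a liver form that start at different promoters, and Pkm is spliced into the M1 and M2 forms, of which M2 is typical of fetal and dividing cells.

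A signal below is the scanner's processed signal, the background-subtracted brightness of a spot in arbitrary units. Before folds were formed, each array was divided by the 75th percentile of its gene signals, which was 296.5 for adult liver, against 386.0 for fetal liver and 894.5 for bone marrow, so a fold is not the plain ratio of the printed signals. Of the gene spots, 52.6% were well above background for adult liver, against 58.7% for fetal liver and 58.8% for bone marrow. Where a gene had several probes, the one well above background on most arrays represented it, or among equals the brightest. By that rule all 8 isozymes were measured in every tissue. The scanner's error model gave the log2 folds of the isozymes errors of 0.20 to 0.27, and repeat spots of a probe had a median SD of 0.07 (log2) in adult liver, against 0.07 in fetal liver and 0.05 in bone marrow. Both describe spots on an array, not animals. A gene was called different when tissues were at least 4-fold apart. In RNA of a whole tissue, fewer cells of a type and less RNA per cell cannot be told apart.

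Markers of the cells of these organs followed the labels. All 6 hepatocyte markers, such as Alb and Cps1, were above background in adult liver, against 4 in fetal liver and 1 (Tat) in bone marrow. Of 6 erythroid markers, 3 were above background in adult liver, against 6 in fetal liver and 6 in bone marrow, with log2 folds of adult over fetal liver from -10.57 to -3.66. Of 6 neutrophil markers, 1 was above background in adult liver, against 6 in fetal liver and 6 in bone marrow, with log2 folds of fetal liver over bone marrow from -8.61 to -2.46. Proliferation markers were above background for 2 of 5 genes in adult liver, against 5 in fetal liver and 5 in bone marrow. Platelet markers were so for 3 of 4 in adult liver, against 4 in fetal liver and 4 in bone marrow. B lineage markers were above background for 3 of 5 genes in adult liver, against 3 in fetal liver and 5 in bone marrow, while macrophage markers were so for 5, 4 and 4 of 5. Of skeletal muscle markers, 1 of 6 was above background in adult liver, against 1 in fetal liver and 5 in bone marrow. Of 4 fat markers, adult liver showed 2, fetal liver 1 and bone marrow 3. Their part in the isozyme differences was not tested.

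Adult liver had lower signals of Hk1, Hk2 and Pkm than both blood-forming organs, and Pklr was the one gene of the 8 whose scaled signal was highest in adult liver. Of the 8 isozymes, 3 (Hk1, Hk2 and Pkm) were at least 4-fold lower in adult liver than in fetal liver, 5 lay within 4-fold and 0 were higher. Of all 14186 genes compared there, 12.1% were at least 4-fold higher in fetal liver, 14.1% were higher in adult liver, and 26.2% were different in either direction. Against bone marrow, 5 isozymes (Hk1, Hk2, Hk3, Pfkp and Pkm) were lower in adult liver and 1 (Pklr) was higher (4 lower, without Pfkp, with the mean of all probes), beside 15.0% of 14245 genes higher in bone marrow, 18.8% higher in adult liver and 33.8% different. Between fetal liver and bone marrow 1 isozyme (Pfkl) was higher in fetal liver and 1 (Hk3) was higher in bone marrow, beside 9.33% and 8.30% of 14677 genes, and 17.6% different. With median scaling or normexp correction Pfkl fell below 4-fold there and 0 were higher in fetal liver. Median scaling and quantile normalization each placed 2 (Hk3 and Pfkp) higher in bone marrow. Quantile normalization also placed 6 isozymes, Aldoa among them, lower in adult liver than in bone marrow. The median log2 fold of the 8 genes was -1.64 for adult over fetal liver, where that of all genes was -0.06, and -3.40 for adult liver over bone marrow, where that of all genes was 0.09. For fetal liver over bone marrow it was -0.39, against 0.26 over all genes. At a threshold of 2-fold, 1 isozyme was higher and 6 were lower in adult than in fetal liver, beside 26.8% and 27.0% of all genes (53.7% together). Against bone marrow 1 was higher and 6 were lower in adult liver, beside 32.6% and 27.4% (60% together), and between fetal liver and bone marrow 2 were higher and 2 lower in fetal liver, beside 25.1% and 17.0% (42.1% together).

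**Figure D1:**
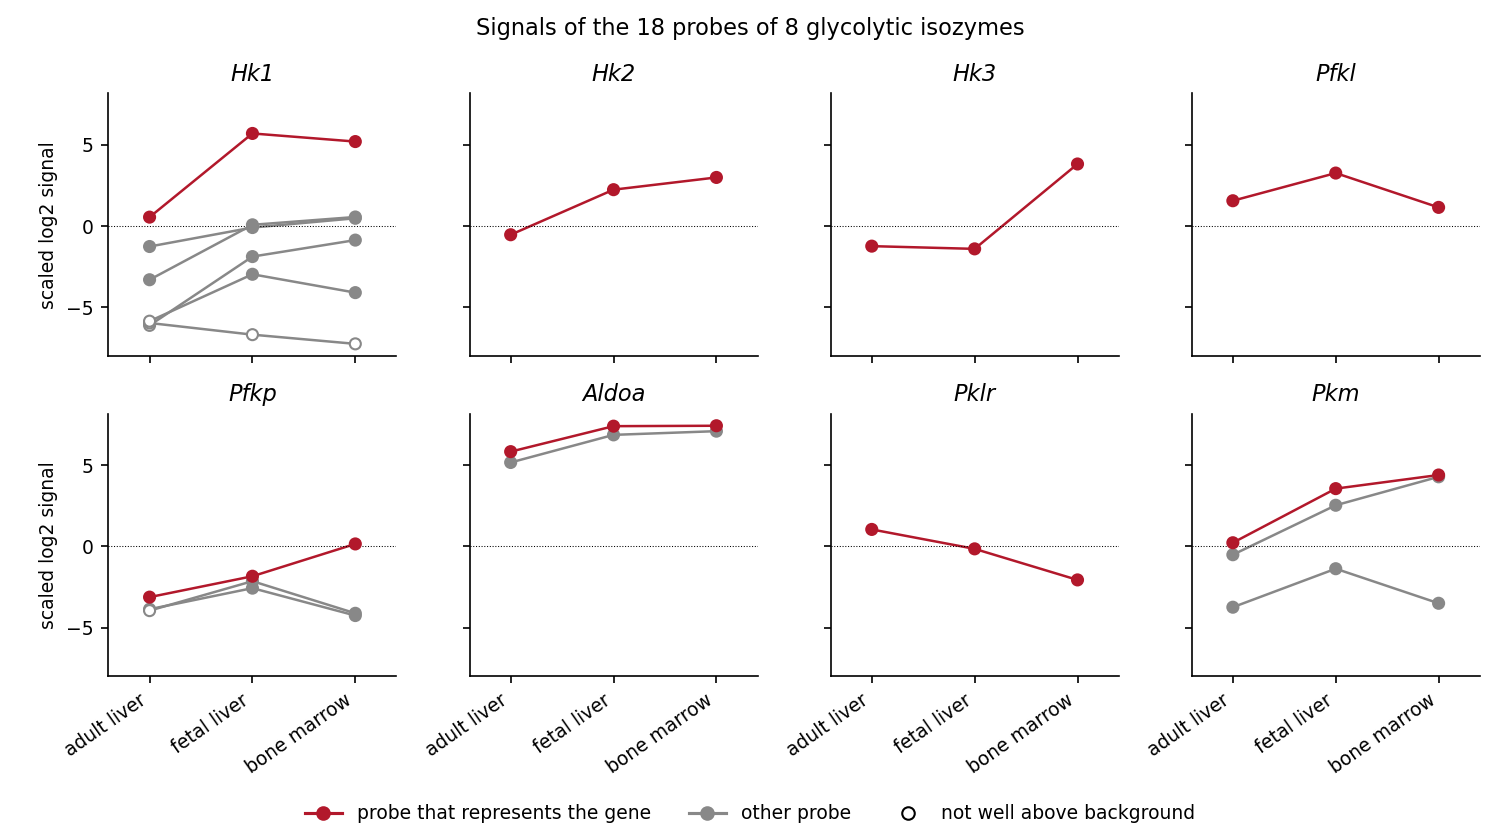
Scaled log2 signal (log2 signal minus the array's 75th percentile) of each of the 18 probes in adult liver, fetal liver and bone marrow, 1 array per tissue. Red marks the probe that represents the gene, grey its other probes and open circles signals not well above background. Heights of different probes are not comparable, so only the course of each line carries information. The red lines of Hk1, Hk2 and Pkm lie lowest in adult liver, that of Hk3 is high only in bone marrow, and that of Pklr declines from adult liver to bone marrow.

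Hk1, the hexokinase of brain and red cells, gave a signal of 435 in adult liver, against 20200 in fetal liver and 33100 in bone marrow (probe at chr10:61731916-61731975 of build mm9, minus strand). It was 35.7-fold lower in adult than in fetal liver, and 4.51% of all genes compared were at least as far apart. Against bone marrow it was 25.2-fold lower in adult liver. Adult liver thus stood apart from both blood-forming tissues, which differed from each other by 1.41-fold, with fetal liver the higher. That direction is uncertain, since 3 of the 5 measured probes placed fetal liver lower (log2 folds of -0.57, -1.02 and -0.48), the mean of all probes gave 0.02 and spike-in scaling gave -1.81. Hk1 had 5 other probes. The probe at chr10:61732735-61732794 gave 30.0 in adult liver, against 408 in fetal liver and 1320 in bone marrow, so that adult liver was 10.4-fold and 14.6-fold lower. The probe at chr10:61734377-61734436 gave 124, 363 and 1250 in the same order, and its folds stayed within 4-fold (2.25 and 3.34). Both remaining probes that were measured in fetal liver were not well above background in adult liver, which was at least 4.27-fold lower by the probe at chr10:61732610-61732640 and at least 2-fold lower by that at chr10:61778201-61778260. The last probe, at chr10:61821119-61821178, was not well above background in any tissue. All 5 measured probes of Hk1 therefore placed adult liver below fetal liver, by sizes up to 35.7-fold.

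Hk2, the inducible hexokinase of muscle, fat and dividing cells, gave a signal of 205 in adult liver, against 1830 in fetal liver and 7150 in bone marrow (chr6:82675056-82675115, mm9). It was 6.86-fold lower in adult liver than in fetal liver and 11.6-fold lower than in bone marrow. Fetal liver and bone marrow differed by 1.69-fold, with fetal liver the lower. Hk3, the hexokinase known from white blood cells, had another pattern, with 126 in adult liver and 146 in fetal liver, against 12700 in bone marrow (chr13:55107900-55107959, mm9). Adult liver was 33.4-fold and fetal liver 37.5-fold lower than bone marrow, and 2.39% of genes compared were at least as far apart as Hk3 was between fetal liver and bone marrow. The livers differed by 1.12-fold, within the scanner's error. The neutrophil markers, at a median log2 fold of -6.76 for fetal liver over bone marrow and with all 6 above background in both, were also lower in fetal liver. For adult over fetal liver their median was -5.23 (5 of 6 folds bounds), and their part in the Hk3 differences was not tested.

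The sequences before the starts of Hk2 and Hk3 are shown because the genes differed in the organ that stood apart. They are 300 bases of the RefSeq reference (GRCm38.p6), 250 before the annotated start and 50 after it, 5′ to 3′ on the gene's strand. Capitals mark matches on either strand to 5 motifs, GATAA (the core bound by GATA factors), GGGCGG (the GC box), ACGTG (the core of hypoxia response elements), CACGTG (the E-box of Myc and its relatives, which contains ACGTG) and GAGGAA (the core bound by the white cell factor PU.1). These occur in 25.4%, 35.7%, 19.6%, 7.15% and 28.3% of 32851 mouse windows of this length. The Hk2 window is chr6:82774405-82774704 and that of Hk3 chr13:55021336-55021635, both on the minus strand.
Hk2: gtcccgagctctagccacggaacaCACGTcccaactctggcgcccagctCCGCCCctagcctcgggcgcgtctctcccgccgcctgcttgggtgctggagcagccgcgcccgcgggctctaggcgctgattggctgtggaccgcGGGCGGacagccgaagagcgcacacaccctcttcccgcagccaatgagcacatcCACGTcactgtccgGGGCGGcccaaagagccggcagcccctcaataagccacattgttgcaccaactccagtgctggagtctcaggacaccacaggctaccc
Hk3: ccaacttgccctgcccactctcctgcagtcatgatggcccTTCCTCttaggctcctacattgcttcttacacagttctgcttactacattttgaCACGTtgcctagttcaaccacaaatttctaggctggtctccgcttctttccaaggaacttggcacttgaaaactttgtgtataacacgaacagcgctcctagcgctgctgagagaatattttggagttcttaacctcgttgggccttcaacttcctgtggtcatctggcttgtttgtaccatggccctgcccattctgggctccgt
Hk2 held 3 GC boxes and 2 hypoxia cores in 67.3% G and C, and Hk3 held 1 hypoxia core and 1 PU.1 core in 49%, where the median window had 52.7%. A match is a string of letters and not a binding site. Over the 13 annotated windows of the 8 genes, GATAA occurred in 4, the GC box in 6, ACGTG in 6, CACGTG in 0 and GAGGAA in 3. The downstream windows of Aldoa overlap and share their GC boxes and ACGTG, so these counts take the same matches in more than once.

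Among the phosphofructokinase subunits, the liver and muscle types had their highest scaled signal in fetal liver (with spike-in scaling both had it in bone marrow), and the platelet type had it in bone marrow by its representative probe only. Pfkl, the liver type, gave a signal of 876 in adult liver, against 3720 in fetal liver and 1990 in bone marrow (chr10:77450926-77450985, mm9). It was 3.26-fold lower in adult than in fetal liver and 4.33-fold higher in fetal liver than in bone marrow. Its log2 fold for fetal liver over bone marrow was 1.70 with median scaling and 1.96 with normexp correction, both under 4-fold. Under spike-in scaling its log2 fold for fetal liver over bone marrow was -0.19 (where the median of all genes was -2.09). Adult liver and bone marrow were 1.33-fold apart. Despite its name, the liver type subunit was thus not at its highest relative level in adult liver in these samples. Pfkm, the muscle type, gave 1210 in adult liver, against 3980 in fetal liver and 4460 in bone marrow, with every fold under 4.

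Pfkp, the platelet type subunit, was close to background in the livers. Its representative probe (chr13:6581718-6583872, mm9, an interval of 2155 bases) gave 34.0 in adult liver, against 108 in fetal liver and 995 in bone marrow, where the lowest signals above background were 18.9, 15.0 and 23.7. By this probe Pfkp was 9.70-fold lower in adult liver and 3.98-fold lower in fetal liver than in bone marrow. The other probes went against that. The probe at chr13:6588296-6588355 gave 20.3 in adult liver, against 65.0 in fetal liver and 46.7 in bone marrow, which made it 3.23-fold higher in fetal liver than in bone marrow. The probe at chr13:6579124-6579183, not well above background in adult liver, was 3.94-fold higher in fetal liver than in bone marrow. With the mean of all probes the log2 fold of Pfkp became 0.56 for fetal liver over bone marrow and -0.91 for adult liver over bone marrow, so its place relative to bone marrow is uncertain. All 3 probes placed adult below fetal liver, by 2.44-fold, 2.46-fold and at least 3.52-fold. The size of that difference depended on the background correction. By the representative probe the log2 fold for adult over fetal liver was -1.29 as reported and -0.43 with normexp correction. For adult liver over bone marrow it was -3.28 as reported and -2.02 with normexp correction. Platelet markers were at median log2 folds of -6.67 for adult liver over bone marrow and -6.87 for adult over fetal liver. In each, 1 of 4 folds was a bound. For fetal liver over bone marrow the median was -0.13. Of the 4 markers 3 were above background in adult liver, and their part in the Pfkp values was not tested.

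Aldoa, the most widely expressed aldolase, gave a signal of 17000 in adult liver, against 65700 in fetal liver and 155000 in bone marrow (chr7:133938799-133938858, mm9). It was 2.97-fold lower in adult than in fetal liver and 3.02-fold lower in adult liver than in bone marrow, both within 4-fold, and its levels in fetal liver and bone marrow were 1.02-fold apart. With quantile normalization its log2 fold for adult liver over bone marrow was -2.43, past 4-fold. Spike-in scaling gave -4.44 there and -2.10 for adult over fetal liver, both past 4-fold. The second probe (chr7:133938601-133938615) gave 10700, 45300 and 123000 in adult liver, fetal liver and bone marrow, with the same order and folds of 3.25 and 3.81. Aldoc, the aldolase of brain, was 6.52-fold higher in adult liver and 4.26-fold higher in fetal liver than in bone marrow. Its second probe was 1.08-fold lower in fetal liver than in bone marrow, and with the mean of both probes neither difference reached 4-fold. Both directions of Aldoc turned round under spike-in scaling.

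Pklr, the red cell and liver pyruvate kinase, had its highest scaled signal in adult liver. Its signal was 613 in adult liver, against 348 in fetal liver and 214 in bone marrow (chr3:88948907-88949425, mm9, an interval of 519 bases). It was 2.29-fold higher in adult than in fetal liver, where 46.5% of all genes were at least as far apart, and 8.64-fold higher in adult liver than it was in bone marrow, where 19.4% were. In fetal liver it was 3.77-fold higher than in bone marrow, a direction that turned round under spike-in scaling (log2 fold -0.39). The array lists this probe for both RefSeq transcripts of the gene, so the liver and red cell forms could not be told apart. Erythroid markers were at median log2 folds of -6.70 for adult over fetal liver and 0.67 for fetal liver over bone marrow, and hepatocyte markers at 5.78 (6 markers) and 7.76 (4 markers compared). Of these folds, 3 of the erythroid ones between the livers and 2 and 3 of the hepatocyte ones are bounds, counted at their bound in the medians. The markers' part in the Pklr values was not tested.

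Pkm gave a signal of 347 in adult liver, against 4560 in fetal liver and 18900 in bone marrow (chr9:59526907-59526966, mm9). It was 10.1-fold lower in adult than in fetal liver and 18.1-fold lower in adult liver than in bone marrow, while fetal liver and bone marrow were 1.79-fold apart. A second probe close by (chr9:59526759-59526818) gave 208 in adult liver, against 2240 in fetal liver and 17500 in bone marrow, with folds of 8.27 and 27.9 towards the blood-forming tissues. The third probe (chr9:59520400-59520459) lies upstream and gave 22.1, 149 and 78.9 in adult liver, fetal liver and bone marrow. By it adult liver was 5.18-fold lower than fetal liver but only 1.18-fold lower than bone marrow, and fetal liver was 4.38-fold higher than bone marrow. All 3 probes placed adult below fetal liver, and they differed on bone marrow. Which of them reads the M1 or the M2 form was not determined here.

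**Figure D2:**
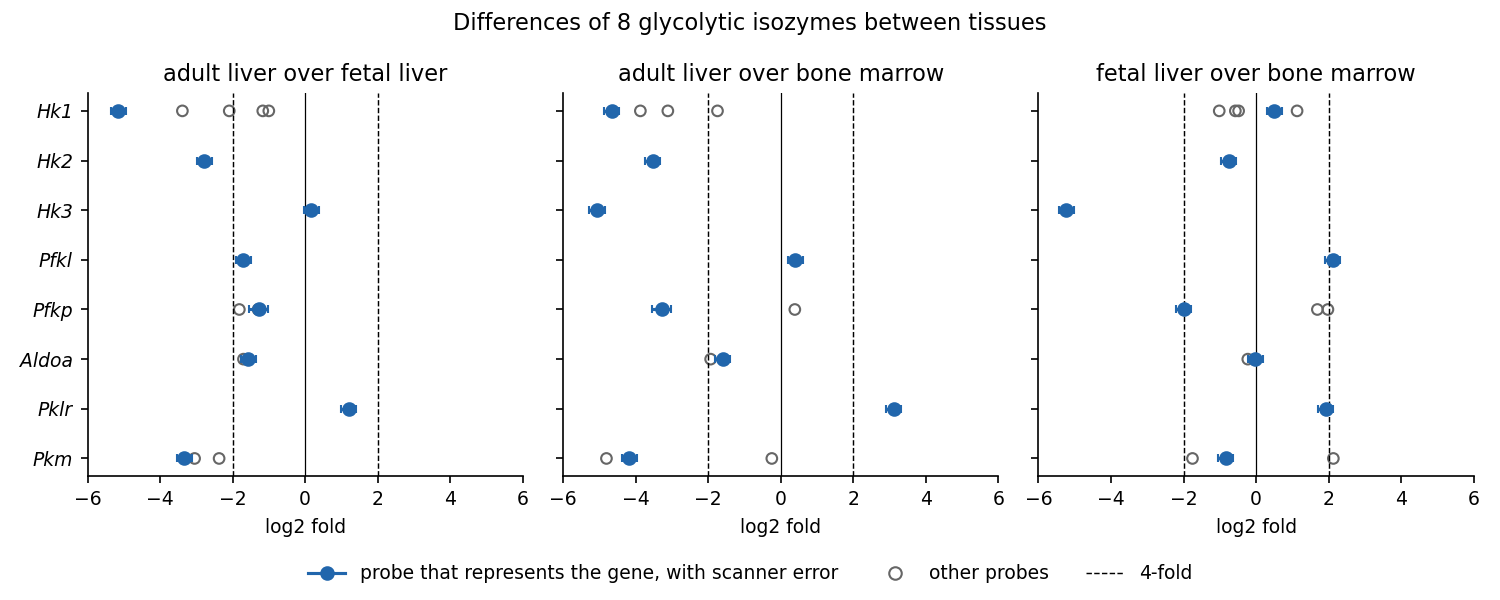
Log2 folds of the 8 isozymes for adult liver over fetal liver, adult liver over bone marrow and fetal liver over bone marrow. Blue points are the probes that represent the genes, with bars for the scanner's error, open circles are their other probes (lower bounds included, at the bound), and dashed lines mark 4-fold. Hk1, Hk2 and Pkm lie left of the 4-fold line in both comparisons of adult liver, and the probes of Hk1, Pfkp and Pkm fall on both sides of 0 for fetal liver over bone marrow.

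Both windows of Pklr and the upstream one of Pkm are shown because these genes differed between tissues in opposite directions. They follow the same conventions as those of the hexokinases. Both Pklr windows are on the plus strand of chromosome 3, the upstream one at chr3:89135892-89136191 and the downstream one at chr3:89136373-89136672. The upstream Pkm window is chr9:59656326-59656625, plus strand.
Pklr, upstream start: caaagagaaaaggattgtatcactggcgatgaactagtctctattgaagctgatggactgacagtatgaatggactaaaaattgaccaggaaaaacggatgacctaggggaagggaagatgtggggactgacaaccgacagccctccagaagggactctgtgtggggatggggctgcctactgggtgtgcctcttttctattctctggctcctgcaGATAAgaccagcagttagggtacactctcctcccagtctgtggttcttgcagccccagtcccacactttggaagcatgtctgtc
Pklr, downstream start: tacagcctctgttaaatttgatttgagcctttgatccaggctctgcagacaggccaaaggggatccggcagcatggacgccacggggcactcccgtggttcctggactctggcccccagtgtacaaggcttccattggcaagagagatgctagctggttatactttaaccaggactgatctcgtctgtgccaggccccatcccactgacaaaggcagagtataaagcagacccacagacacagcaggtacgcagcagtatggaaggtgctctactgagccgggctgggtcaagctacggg
Pkm, upstream start: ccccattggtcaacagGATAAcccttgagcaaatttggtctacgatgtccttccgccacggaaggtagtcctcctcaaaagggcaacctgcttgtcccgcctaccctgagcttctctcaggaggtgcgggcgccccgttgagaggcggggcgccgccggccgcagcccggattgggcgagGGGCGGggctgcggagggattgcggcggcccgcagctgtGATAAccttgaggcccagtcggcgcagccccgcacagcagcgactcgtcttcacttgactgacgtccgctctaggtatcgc
The upstream window of Pklr held 1 GATAA, and the downstream one held none of the 5 motifs. That of Pkm held 2 GATAA and 1 GC box in 65.0% G and C, against 50.7% and 55.7% in the windows of Pklr. The second window of Pkm (chr9:59656977-59657276), not printed, held no GATAA and 2 hypoxia cores in 61.3% G and C.

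Setting the isozymes of a step against each other removes any scaling that multiplies a whole array, since it takes the difference between the log2 folds of 2 genes. Between adult and fetal liver, Pklr and Pkm moved apart by 4.53, so that the shift of Pklr relative to Pkm was 23.1-fold. Between adult liver and bone marrow the gap was 7.29, or 156-fold, and between fetal liver and bone marrow it was 2.75, or 6.74-fold. Over all pairs of their probes it ranged from 3.57 to 4.53 between the livers, from 3.35 to 7.91 between adult liver and bone marrow, and from -0.22 to 3.67 between fetal liver and bone marrow. The first and second comparisons thus had the same sign with every probe, and the third had not.

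Hk3 relative to Hk1 was shifted by 5.32 between adult and fetal liver, by -0.41 between adult liver and bone marrow and by -5.73 between fetal liver and bone marrow. Over the probes of Hk1, with folds against a dim probe at their bound, these differences ranged from 1.17 to 5.32, from -3.32 to -0.41 and from -6.36 to -4.21. Hk1 relative to Hk2 differed by -2.38 between the livers by the representative probe, but over the 5 probes of Hk1 it ranged from -2.38 to 1.77. Pfkl relative to Pfkp was shifted by 3.69 between adult liver and bone marrow and by 4.11 between fetal liver and bone marrow, and other probes of Pfkp brought these to 0.02 and 0.14. Between the livers it was -0.42, near the scanner's error of 0.34.

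**Figure D3:**
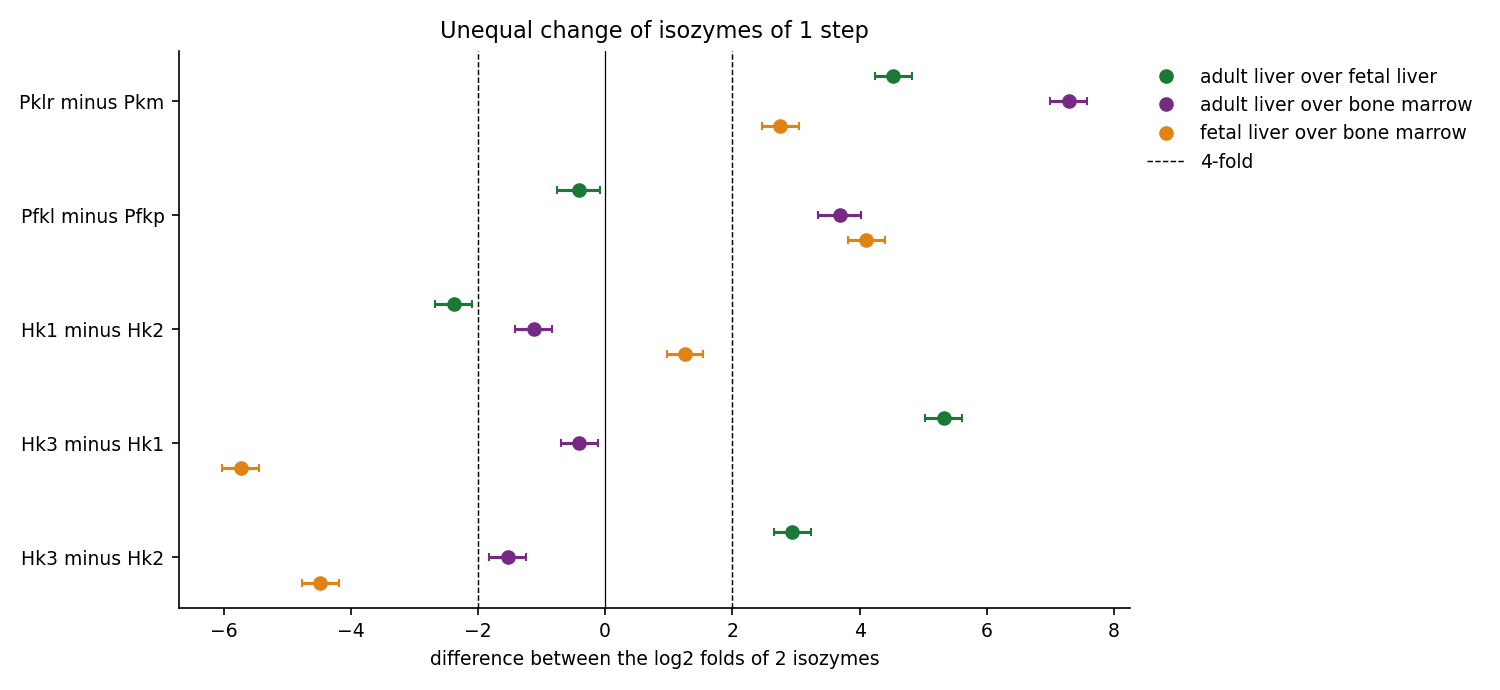
Difference between the log2 folds of 2 isozymes of a step (first minus second) for adult liver over fetal liver, adult liver over bone marrow and fetal liver over bone marrow, by the representative probes. Bars are the scanner's error, and dashed lines mark 4-fold. Pklr minus Pkm lies right of 4-fold in all 3 comparisons, and Hk3 minus Hk1 lies right of it between the livers and left of it between fetal liver and bone marrow.

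The list of other genes of glycolysis and its control held 36 genes, and the directions given here are those of the 75th percentile scaling unless said otherwise. Between adult and fetal liver 8 were at least 4-fold higher and 7 lower in adult liver, beside 14.1% and 12.1% of all genes. Between adult liver and bone marrow 11 were higher and 6 lower of 35 compared, beside 18.8% and 15.0%. Between fetal liver and bone marrow 5 were higher and 3 lower of 35, beside 9.33% and 8.30%. The median log2 folds of the listed genes were 0.26, 0.02 and 0.52, where those of all genes were -0.06, 0.09 and 0.26. At the hexokinase step, Hkdc1, a hexokinase-like gene whose probe (chr10:61845922-61845981, mm9) lies near those of Hk1, gave 51.4 in adult liver, against 2220 in fetal liver, and was not well above background in bone marrow. It was 33.2-fold lower in adult than in fetal liver and at least 217-fold higher in fetal liver than in bone marrow, which adult liver exceeded at least 6.54-fold. Hk1, in contrast, was 1.41-fold apart between fetal liver and bone marrow by its representative probe. Adpgk, a sugar kinase that uses ADP, was 12.5-fold lower in adult liver and 7.24-fold lower in fetal liver than in bone marrow.

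Around phosphofructokinase, the enzymes that make and break its activator fructose 2,6-bisphosphate also differed by isozyme. Pfkfb1, the liver form, gave 4220 in adult liver, against 698 in fetal liver and 581 in bone marrow, which made it 7.87-fold and 21.9-fold higher in adult liver. Pfkfb4 gave 225 in adult liver and 817 in fetal liver, against 20600 in bone marrow, so that it was 30.3-fold lower in adult liver and 10.9-fold lower in fetal liver than in bone marrow. Pfkfb2 and Pfkfb3 were within 4-fold in all comparisons by their representative probes, although another probe of Pfkfb2 was 5.01-fold higher in adult than in fetal liver. Further down, Bpgm, which makes the 2,3-bisphosphoglycerate of red cells, was 7.14-fold lower in adult than in fetal liver and 13.7-fold lower in adult liver than in bone marrow. By its second probe these were 4.27-fold and 27.0-fold, and fetal liver was 6.32-fold lower than bone marrow. Gpi1, Tpi1, Gapdh, Pgk1 and Pgam1 lay within 4-fold in all 3 comparisons. Of the enolases, Eno1 was 7.51-fold lower in fetal liver than in bone marrow and Eno3 was within 4-fold in all 3 comparisons. Eno2 was well above background in fetal liver only, where it was at least 3.01-fold higher than in bone marrow, so the size of its difference is not known.

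At the exit of the pathway, Ldha was within 4-fold everywhere and Ldhb, the heart type lactate dehydrogenase, was 5.26-fold lower in adult than in fetal liver. The kinases that shut off pyruvate dehydrogenase separated by tissue. Pdk4 gave 910 in adult liver, against 65.7 in fetal liver and 61.1 in bone marrow, being 18-fold and 44.9-fold higher in adult liver. Pdk2 was 8.38-fold higher in adult than in fetal liver and 9.52-fold higher than in bone marrow. Pdk3 ran the other way, being not well above background in adult liver, with 1170 in fetal liver and 3250 in bone marrow, so that adult liver was at least 47.6-fold and at least 57.0-fold lower. Pdk1 was 6.38-fold higher in adult liver than it was in bone marrow, a direction that turned round under spike-in scaling. Mpc1, a subunit of the mitochondrial pyruvate carrier, was 8.09-fold higher in adult than in fetal liver. It was 4.24-fold higher than in bone marrow, but 2.52-fold by its second probe, and this direction also turned round under spike-in scaling. Mpc2, its partner, was within 4-fold.

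**Figure D4:**
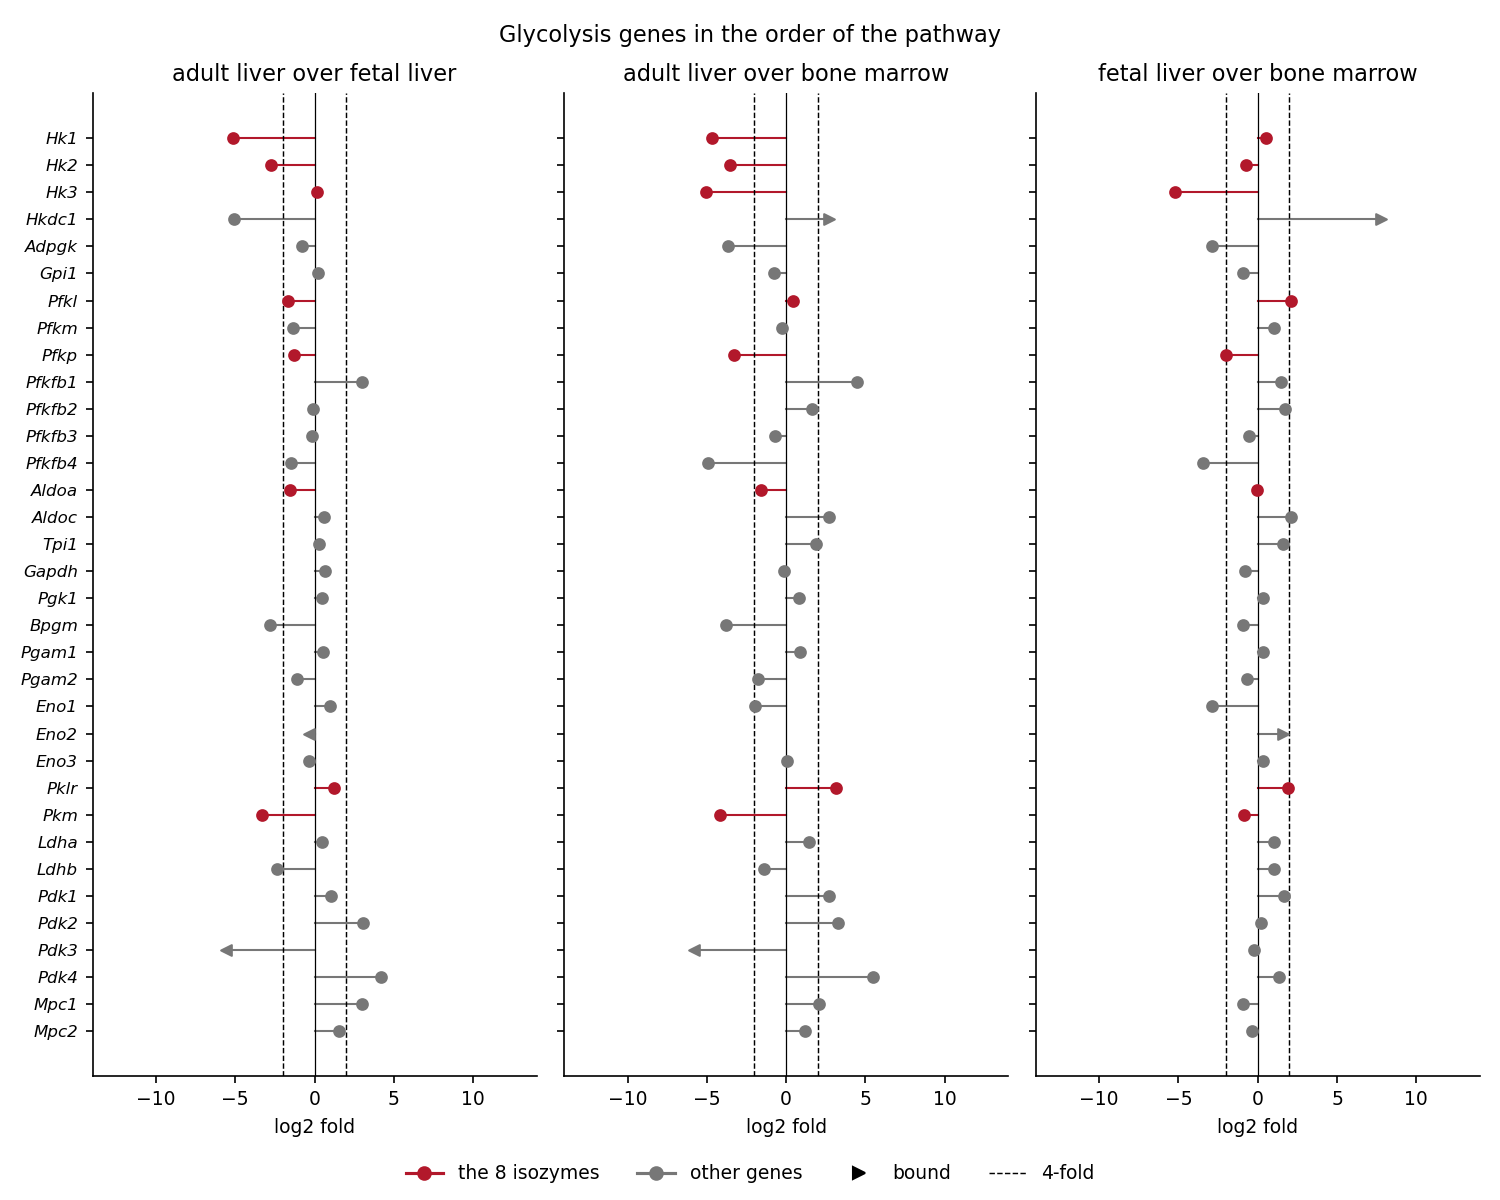
Log2 folds of glycolysis genes in the order of the pathway, for adult liver over fetal liver, adult liver over bone marrow and fetal liver over bone marrow, 1 probe per gene. Red points are the 8 isozymes, grey points other genes, triangles bounds, and dashed lines 4-fold. Genes without a point had no fold because the probe was not well above background in either tissue. Pfkfb1, Pdk2 and Pdk4 lie right of the 4-fold line in both comparisons of adult liver, where Hk1, Hk2 and Pkm lie left of it.

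Genes with the profile nearest to each isozyme over the 3 tissues were found among the 11688 genes well above background everywhere, by the distance between log2 profiles centred on their means. With only 3 tissues such likeness is common, and it is given as a description. Hk1 lay nearest to Cdca7 (distance 0.08), Chaf1b (0.11) and Atad2 (0.13), and 42 genes were within 0.5 of it. Hk3 lay nearest to Pilrb2 (0.02), 5730416F02Rik (0.08) and Cd300lf (0.12), with 26 genes within 0.5. Pkm lay nearest to Sh3tc2 (0.07), Rinl (0.08) and Rec114 (0.13), with 52 genes. Hk2 had Abcc1, Nt5c3 and Rpa3 as its nearest and 100 genes within 0.5, Pfkp had Tspan2, Ogfrl1 and Tctex1d2 (86 genes), and Pklr had Cfl2, Cry2 and Dbpht2 (180 genes). Pfkl had Zfp105, Tulp3 and Jcad (191 genes), and Aldoa had Ap2b1, Bbs9 and Dnase1l1 (748 genes), so the flattest profile had the most company.

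How the arrays were scaled set the sign of several differences, among them some called at 4-fold. With the 7 spike-in controls above background on all arrays in place of the 75th percentile, the median log2 fold of all genes became -0.54 for adult over fetal liver, -2.72 for adult liver over bone marrow and -2.09 for fetal liver over bone marrow. The genes called between adult liver and bone marrow then split into 845 higher and 9670 lower in adult liver, against 2676 and 2139 as reported, and with median scaling into 2209 and 2654. Between fetal liver and bone marrow the split was 320 higher and 7698 lower in fetal liver, against 1370 and 1218 as reported and 1003 and 1579 with median scaling. Between the livers it was 1473 and 2631, against 2007 and 1711. Under spike-in scaling 5 isozymes were lower in adult than in fetal liver, 7 were lower in adult liver than in bone marrow and 5 were lower in fetal liver than in bone marrow, and 0 were higher in any comparison. Hk3 between the livers (log2 fold -0.36) and Pfkl between adult liver and bone marrow (-2.43) changed sign, besides Hk1, Pfkl and Pklr between fetal liver and bone marrow. Pklr stayed higher in adult liver than in fetal liver (0.67) and bone marrow (0.27). The lower levels of Hk1, Hk2 and Pkm in adult liver held with at least 4-fold against both tissues under median, spike-in and quantile scaling, normexp correction and the mean of all probes. The authors' deposited values gave nearly the same folds. They are the signal's error over a constant, which rises with the signal for these probes, so they are not a separate check.

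**Figure D5:**
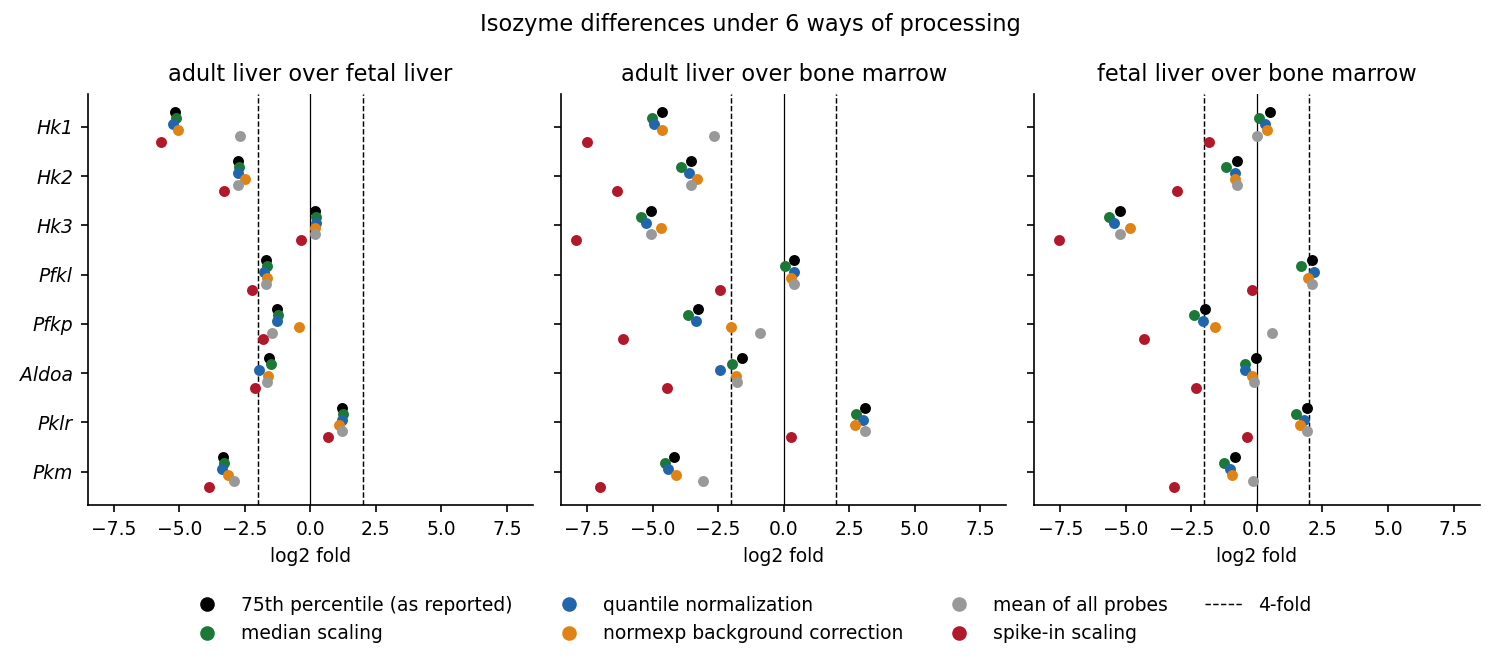
Log2 folds of the 8 isozymes under 6 ways of processing the same arrays, for adult liver over fetal liver, adult liver over bone marrow and fetal liver over bone marrow, with dashed lines at 4-fold. Spike-in scaling (red) moves all genes to the left where bone marrow is compared, and the mean of all probes (grey) moves Hk1 and Pfkp. Hk1, Hk2 and Pkm stay left of the 4-fold line in both comparisons of adult liver.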

How the data were processed

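Expression was measured with 1-colour Cy3 arrays of 45018 spots, 43379 of them for genes, in adult liver, fetal liver and bone marrow, 1 array per tissue, all on 1 slide per the file headers. The authors read the arrays with Agilent Feature Extraction 10.5.1.1, per the submitters' processing notes. Per the file headers, the deposited processed signal intensity was background-subtracted and spatially detrended on a linear scale, with no normalization between arrays, and its error, the mean signal intensity and the local background intensity were deposited beside it. The ratio column of the authors' deposited table equalled the signal's error over a constant (29.3 for adult liver, against 37.8 for fetal liver and 85.3 for bone marrow) on 45018 of 45018 spots, within 1%, and served only as an alternative.

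Log2 of the processed signal minus the array's 75th percentile over gene spots was taken with numpy 2.4.6, pandas 2.3.3 and Python 3.11.15, leaving out control spots and the 75, 71 and 80 flagged gene spots of adult liver, fetal liver and bone marrow. Spots of a probe were averaged. No spot was saturated. Where a probe was not well above background in 1 tissue, the fold is a lower bound against the higher of its own signal and the lowest scaled signal above background on that array, written "at least", and where it was so in both, no fold was formed. With no replicates no test was run, and the number of arrays limits precision. Probe names came from accessions and symbols matched to RefSeq (32685 of 41174 probes), positions are those of the array file on mm9, and exons were not assigned since no annotation of that build was used here. Normexp (offset 50) used limma 3.58.1 in R 4.3.3, and quantile normalization was computed in Python. The computation was checked on simulated arrays. The genes and lists were chosen with earlier results of these data known. Named were all 8 isozymes, the other isozymes of their steps, other listed genes at least 4-fold apart, and the 3 nearest profiles of each isozyme. Some of the listed genes are counted but not reported here.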

Additional observations from a re-analysis of the deposited data

How the results depend on the processing

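The count of isozymes at least 4-fold apart between adult and fetal liver was 3 as reported, 5 with spike-in scaling and 7 with a 2-fold threshold. Between fetal liver and bone marrow it was 2 as reported, 5 with spike-in scaling, 1 with normexp correction and 4 with a 2-fold threshold, and that of the other glycolysis genes was 8, against 17 with spike-in scaling and 18 with a 2-fold threshold. At 2-fold 53.7% of all genes differed between the livers and 42.1% between fetal liver and bone marrow. Over all genes spike-in scaling called 1473 higher and 2631 lower in adult than in fetal liver, against 2007 and 1711 as reported. Between fetal liver and bone marrow it called 320 higher and 7698 lower in fetal liver, against 1370 and 1218 as reported. Normexp correction called 866 and 835 there. Spike-in scaling turned round the called log2 folds of Pfkl (-0.19) and Aldoc (-0.22) for fetal liver over bone marrow and of Aldoc (-0.14), Pdk1 (-0.17) and Mpc1 (-0.75) for adult liver over bone marrow. These turns follow from its shift of all genes. With the mean of all probes the log2 difference of Hk1 minus Hk2, adult liver over fetal liver, became 0.0909 (as reported -2.38). That mean takes in every probe of Hk1, and the others gave smaller folds or were not well above background. Differences between isozymes cannot be moved by scaling to the median or to spike-ins. No paired analysis was possible because each tissue has 1 array. Dim signals limit Pfkp most, at 34.0 in adult liver where the lowest signal above background was 18.9.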

Other observations

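Among the known regulators of these genes, Mlxipl, which encodes the glucose-responsive factor ChREBP that acts on Pklr in liver, gave a signal of 26100 in adult liver, against 2570 in fetal liver and 51.1 in bone marrow. It was 13.2-fold higher in adult than in fetal liver and 1541-fold higher in adult liver than it was in bone marrow, and its second probe gave 15.0-fold between the livers. Myc gave 77.6 in adult liver, against 3068 in fetal liver and 4944 in bone marrow. It was 30.4-fold and 21.1-fold lower in adult liver. Its other probes gave 25.7-fold and at least 2.69-fold between the livers, in the same direction.

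Splicing factors known to act on Pkm were also lower in adult liver by some probes. Hnrnpa1 gave 922 in adult liver, against 16300 in fetal liver and 22200 in bone marrow, 13.6-fold and 7.98-fold lower, and a second probe gave 4.41-fold and 2.4-fold. Its remaining probes gave 3.75-fold and at least 1.78-fold between the livers, and 5.63-fold and at least 1.56-fold against bone marrow, in the same direction. Hnrnpa2b1 was 4.33-fold lower in adult than in fetal liver by its representative probe and 1.51-fold lower by the other. Ptbp1 (3.14-fold, and 1.29-fold by its other probe) and Srsf3 (2.51-fold) were lower in adult than in fetal liver within 4-fold. Hif1a, the hypoxia factor, was within 1.5-fold between all tissues. No relation between these levels and those of Pklr or Pkm was tested.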
